A study of Mus musculus with 6 samples.

Results

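The genes described here are the 8 members of the hedgehog pathway whose symbols were looked up in the count tables: the secreted inhibitor Hhip, the receptor Ptch1, the co-receptors Boc and Gas1, the signal transducer Smo and the transcription factors Gli1, Gli2 and Gli3. All 8 were present in each of the 6 tables, among 30830 gene rows (single-dose PBS), 30828 (single-dose bleomycin) and 32285 (the other 4 tables). They were measured by droplet 3′ single-cell RNA sequencing in Pdgfra-GFP mice, a knock-in reporter line in which nuclear EGFP is driven from the Pdgfra locus, so that GFP+ sorting collects cells in which that locus is active rather than all lung fibroblasts (FBs). The question asked of each pair of libraries was how these genes differed between FBs of control and bleomycin-injured lungs, bleomycin being a drug that injures the lung and is followed by fibrosis.

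Each condition was 1 library made from cells of 3 pooled male mice of 10 to 14 weeks. In the single-dose experiment mice received PBS or bleomycin once in 50 μL by oropharyngeal aspiration, and GFP+ cells were sorted on day 14. The bleomycin dose is 2 U/kg in the protocol and 4 U/kg in the treatment label of that library, and this difference could not be settled. In the repetitive experiment PDGFRa-EGFP mice received 3 weekly doses of either PBS or bleomycin. The bleomycin doses were 1 U/kg for the first and second and 0.5 U/kg for the last. GFP+ cells were collected 14 days after the last dose. For the organoids (alveolospheres), GFP+ FBs taken 14 days after PBS (normal FBs) or 2 U/kg bleomycin (fibrogenic FBs) were cultured in Matrigel for 2 weeks with tomato+ type 2 alveolar epithelial cells (AEC2s) from tamoxifen-treated SpcCreER × Rosa-td26 mice, whose tomato reporter marks the AEC2s, and the dissociated cultures were sequenced. The label gives a mixing ratio of 10:1 (AEC2s to FBs), whereas the study's methods give cell numbers in which FBs outnumber AEC2s, and this was not settled. With 1 library per condition there is no replicate spread, so no test between conditions was possible. Every interval below is an exact 95% interval for counting error in these libraries only, and unique molecular identifiers (UMIs) of 1 cell are not independent samples of the condition.

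Hedgehog signalling runs from a lipid-modified ligand (Shh, Ihh or Dhh), made mostly by epithelium in the lung, to neighbouring mesenchymal cells. Unbound Ptch1 keeps Smo inactive. Ligand binding, helped by Boc, Gas1 and Cdon, releases Smo, which turns Gli2 and Gli3 from repressor towards activator forms. Gli1, Ptch1 and Hhip are themselves classical target genes of the pathway, Ptch1 and Hhip acting as negative feedback because both bind the ligand. In human genetics the region around HHIP is associated with lung function and chronic obstructive lung disease.

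The genes lie on different chromosomes except for 3 that share chromosome 13 (GRCm38, GENCODE M21). Hhip (ENSMUSG00000064325) is on chromosome 8 from 79965851 to 80058006 on the minus strand. Ptch1 (ENSMUSG00000021466) spans 63508328 to 63573598 on the minus strand of chromosome 13, which also carries Gas1 (60174405 to 60177365) and Gli3 (15463235 to 15730026). Gli1 is on chromosome 10 (127329882 to 127341974), Gli2 on chromosome 1 (118834132 to 119053619), Smo on chromosome 6 (29735503 to 29761365) and Boc on chromosome 16 (44485049 to 44558897). RefSeq promoter windows of 300 bases (250 before and 50 after the start site, GRCm38.p6) were given for 6 of the 8 members. The GLI core consensus GACCACCCA, searched on both strands, was found in 0 of these 6 windows and in 0.253% of all 32851 windows. Its shorter, overlapping core ACCACCC was found in the Gli2 window alone and in 4.61% of all windows. The RefSeq start of Ptch1 lies inside the GENCODE gene. The 250 bases before the start site are shown for Hhip and Ptch1, the target genes that bind the ligand and were both at least 2-fold higher after repetitive bleomycin, and for Gli2, the window with the short core (capitals, reverse complement strand); the letters give no information on whether a GLI factor binds elsewhere.
Hhip, chr8:80058009-80058258, minus strand: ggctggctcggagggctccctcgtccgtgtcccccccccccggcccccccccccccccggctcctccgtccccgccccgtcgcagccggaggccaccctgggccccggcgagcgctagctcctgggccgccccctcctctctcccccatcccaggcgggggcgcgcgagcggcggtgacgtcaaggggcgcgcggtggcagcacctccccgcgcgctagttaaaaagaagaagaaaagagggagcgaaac
Ptch1, chr13:63565736-63565985, minus strand: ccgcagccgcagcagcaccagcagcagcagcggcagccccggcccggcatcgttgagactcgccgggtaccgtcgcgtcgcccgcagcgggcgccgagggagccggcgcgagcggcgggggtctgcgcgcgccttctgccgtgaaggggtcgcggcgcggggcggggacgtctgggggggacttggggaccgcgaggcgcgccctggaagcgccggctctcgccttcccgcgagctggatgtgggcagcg
Gli2, chr1:119053620-119053869, minus strand: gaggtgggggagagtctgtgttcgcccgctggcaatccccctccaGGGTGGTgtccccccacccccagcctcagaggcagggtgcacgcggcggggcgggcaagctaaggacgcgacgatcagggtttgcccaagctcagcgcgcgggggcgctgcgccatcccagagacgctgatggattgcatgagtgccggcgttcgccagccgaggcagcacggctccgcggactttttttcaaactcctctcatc

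The libraries held 1060 (single PBS), 1015 (single bleomycin), 6139 (repetitive PBS), 10737 (repetitive bleomycin), 5441 (organoids with normal FBs) and 8894 (organoids with fibrogenic FBs) barcodes, with 7201081 to 238618743 UMIs per library. The median depth was 2478 UMIs per barcode in the repetitive bleomycin library against 10178 in repetitive PBS, and 43.7% of the repetitive bleomycin barcodes fell below the minimum of 2000 UMIs used here, against 5.31%. Any 2 libraries shared 0 to 30 barcode sequences. FBs were barcodes with at least 3 of 6 FB markers and no other cell type by markers, which left 869, 830, 5337, 5375, 2130 and 3268 cells in the order above. In these FBs Pdgfra was measured at 519, 293, 592, 373, 77.1 and 71.4 CPM (counts scaled to 1000000 UMIs summed over the class), Col1a1 at 695 to 3177 CPM, Ptprc at no more than 1.90 CPM and Epcam at no more than 2.78 CPM. Leukocyte barcodes (65, 85, 282 and 537 in the 4 lung libraries) were kept apart for comparison. Their gate did not exclude FB markers, so barcodes that hold a leukocyte and an FB together can lie among them. Their levels can therefore hold more than free RNA. The single-dose tables and the other 4 tables have different numbers of gene rows and listed some genes at very different levels in the same kind of cell: Gli3 in PBS FBs was 5.33 CPM in the single-dose experiment and 39.7 CPM in the repetitive one. Levels are therefore compared within an experiment, and set side by side across experiments.

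Hhip, which binds hedgehog ligands at the cell surface and limits their action, was the member that differed most in both lung experiments. It was measured at 38.1 CPM (33.4 to 43.4) in single-dose PBS FBs and at 105 CPM (98.7 to 111) after bleomycin. In the repetitive experiment it was at 30.9 CPM (29.5 to 32.4) in PBS FBs and at 218 CPM (214 to 222) after bleomycin. The intervals of the libraries did not overlap in either experiment, and the bleomycin library was 2.75-fold higher (2.38 to 3.18) after 1 dose and 7.05-fold higher (6.71 to 7.41) after the repetitive doses. Hhip was the only 1 of the 8 members at least 2-fold higher in single-dose FBs, where 9.26% of 12082 genes with at least 20 UMIs were called higher by the same rule (|log2 ratio| of at least 1 after adding 1 CPM). In the repetitive FBs 4 of the 8 (Hhip, Gli1, Gli2 and Ptch1) were called higher, against 5.91% of 17121 genes. Of these Hhip alone was called in every setting tried: the count was 3 without gates or with the mean of per-cell CPM (Ptch1 lost), 2 after centring on the median gene (Gli2 and Ptch1 lost) and 1 with 10 CPM added. Over all FBs 0 members were called lower in either experiment, where 3.72% and 1.65% of genes were. Leukocyte barcodes moved in the same direction, with Hhip at 8.92 and 20.2 CPM (single PBS and bleomycin) and at 5.04 and 64.5 CPM (repetitive PBS and bleomycin); the part of free RNA in the FB values was not tested.

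**Figure D1:**
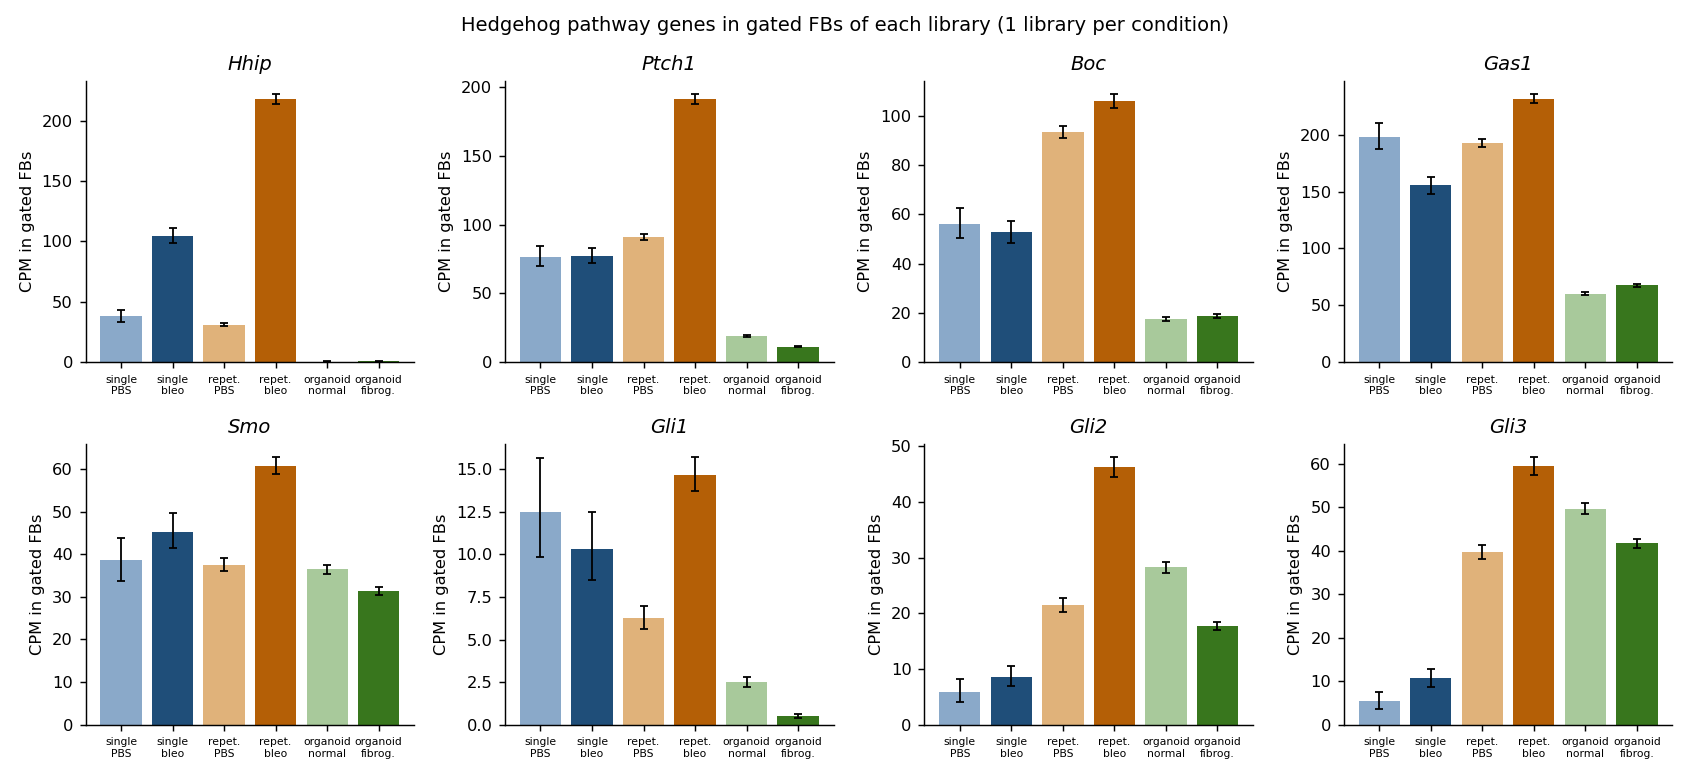
Level of each hedgehog pathway gene, in CPM over gated FBs (y axis, from 0), in the 6 libraries (x axis); error bars are exact 95% Poisson intervals and each bar is 1 library. Hhip stands at 105 and 218 CPM in the bleomycin libraries against 38.1 and 30.9 CPM in their PBS controls, and near 0 in the organoids.

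In uninjured lungs few FBs carried Hhip. Of the FBs of single-dose PBS 88 of 869 had any Hhip UMI, and 331 of 830 after bleomycin; in the repetitive pair these were 624 of 5337 and 2204 of 5375. In repetitive PBS, Hhip was at 182 CPM (162 to 203) in 118 peribronchial FB-like cells, named from Aspn, Fgf18, Lgr6, Cdh4, Mustn1 and Enpp2. It was at 20.4 CPM (19.2 to 21.7) in 4411 LipoFB-like cells, an 8.89-fold difference (7.81 to 10.1). The peribronchial FB-like cells held a median of 5.05 peribronchial and 76.7 MatrixFB marker UMIs per 10000, and were gated before the MatrixFB-like class. In this library 10.4% of FBs lay at the peribronchial cut or 1 marker below it. The 8.89-fold value depends on the gate: its log2 ratio was 3.09, 5.11 with 1 marker more and 4.2 with Leiden clusters. The cluster named peribronchial (205 cells, Hhip at 194 CPM) held peribronchial markers at 2.6 times the mean of all FBs. A cluster named MatrixFB-like (463 cells) held them at 2.77 times, with Hhip at 30.2 CPM. An ungated cluster of 522 cells gave 432 Hhip UMIs, against 436 in the cluster named peribronchial. In single-dose PBS only 12 cells passed the peribronchial gate, with Hhip at 871 CPM, and these 12 gave 34.1% of all Hhip UMIs in FBs. Without peribronchial FB-like cells the single-dose difference was 4.07-fold (3.43 to 4.86), and over barcodes of at least 5000 UMIs it was 4.71-fold (3.89 to 5.74), with the PBS level at 25.5 and 22.2 CPM and the bleomycin level at 104 CPM in both. The highest count in 1 cell was 27 and 24 UMIs in the single-dose libraries and 44 and 144 in the repetitive ones.

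LipoFBs are the lipid-containing alveolar FBs that form a niche for AEC2s, and in LipoFB-like cells the difference in Hhip was larger than in all FBs. Their Hhip level was 19.6 CPM (16 to 23.8) in 749 cells of single-dose PBS and 152 CPM (140 to 166) in 287 cells after bleomycin, a 7.77-fold difference (6.27 to 9.71). In the repetitive experiment it was 20.4 CPM in 4411 cells and 267 CPM (261 to 274) in 2364 cells, a 13.1-fold difference (12.2 to 14.0). In both experiments the intervals of the LipoFB-like cells lay far apart. MatrixFB-like cells, named from adventitial markers such as Col14a1, Pi16 and Dpt, differed less. Their Hhip level was 51.5 CPM in PBS and 63.3 CPM after a single dose, 1.23-fold higher with an interval (0.790 to 1.96) that includes no difference. It was 55.7 and 96.2 CPM in the repetitive pair, 1.73-fold higher (1.54 to 1.94). The leukocyte barcodes of this pair rose by more CPM than these cells did, and the part of free RNA in the difference was not tested. Peribronchial FB-like cells of the repetitive pair stood at 182 and 412 CPM, a 2.27-fold difference (2.01 to 2.57). In the single-dose pair this small class was instead lower after bleomycin. It gave 78 Hhip UMIs in 12 PBS cells and 36 in 21 bleomycin cells, at median depths of 6074.5 and 11447 UMIs. These cells held a median of 22.7 (PBS) and 4.53 (bleomycin) peribronchial marker UMIs per 10000. The class therefore differed in content between the libraries, and a change within peribronchial FBs cannot be read from it. After a single dose of bleomycin the level of this class was 0.897 times (0.621 to 1.26) that of LipoFB-like cells. The order of classes turned within the repetitive experiment: LipoFB-like cells were 2.73-fold (2.43 to 3.06) below MatrixFB-like cells in PBS and 2.78-fold (2.61 to 2.96) above them after bleomycin.

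Some classes were gated almost only after bleomycin. Cells of the injury-activated gate (Sfrp1, Ltbp2, Timp1, Tnc, Hp) held 116 CPM in 204 cells of the single-dose and 196 CPM in 521 cells of the repetitive bleomycin library. Their 10 genes of highest fold in the single-dose experiment were led by Cxcl9, Saa1 and Lgals7 and included none of their own markers and 1 marker of the MyoFB list, Spp1. In the repetitive experiment they included 1 of their own, Hp. These cells are therefore described by their gate and not as a cell type. The LipoFB-like class had 1 and 0 of its own markers among its 10 genes in the single-dose and repetitive experiments, so its name too stands for its gate. MyoFB-like cells, the contractile matrix-producing FBs marked by Cthrc1 and Postn, held 29.9 CPM (56 cells) and 48.1 CPM (117 cells), which was 5.10-fold (3.56 to 7.53) and 5.56-fold (4.64 to 6.73) below the LipoFB-like cells of the same library, and in the repetitive experiment also below the leukocyte level of 64.5 CPM. The highest class level after repetitive bleomycin was 625 CPM in 42 smooth muscle-like cells. These held a median of 21.8 smooth muscle, 8.63 peribronchial and 51.9 MyoFB marker UMIs per 10000. The peribronchial FB-like and MyoFB-like classes of this library, gated after them, held 6.475 and 33.8 of their own markers. The name smooth muscle-like therefore stands for the gate. LipoFB-like cells gave 46.9% of the FBs' Hhip UMIs in the single-dose and 57.1% in the repetitive bleomycin library, and cells of the injury-activated gate 28.1% and 10.6%. The LipoFB-like class itself differed between the libraries: its median content of LipoFB marker UMIs was 121 per 10000 UMIs in repetitive PBS and 72.7 after bleomycin, and of injury markers 1.11 and 15.7; 13.2% of the repetitive bleomycin FBs lay near the LipoFB cut (within a factor of 1.2). With the PBS shares of the classes used for both libraries, the Hhip difference was 6.22-fold over the 2 classes available in the single-dose pair and 8.19-fold over 4 in the repetitive pair. The single-dose value leaves out the peribronchial class, without which the difference over FBs was 4.07-fold.

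**Figure D2:**
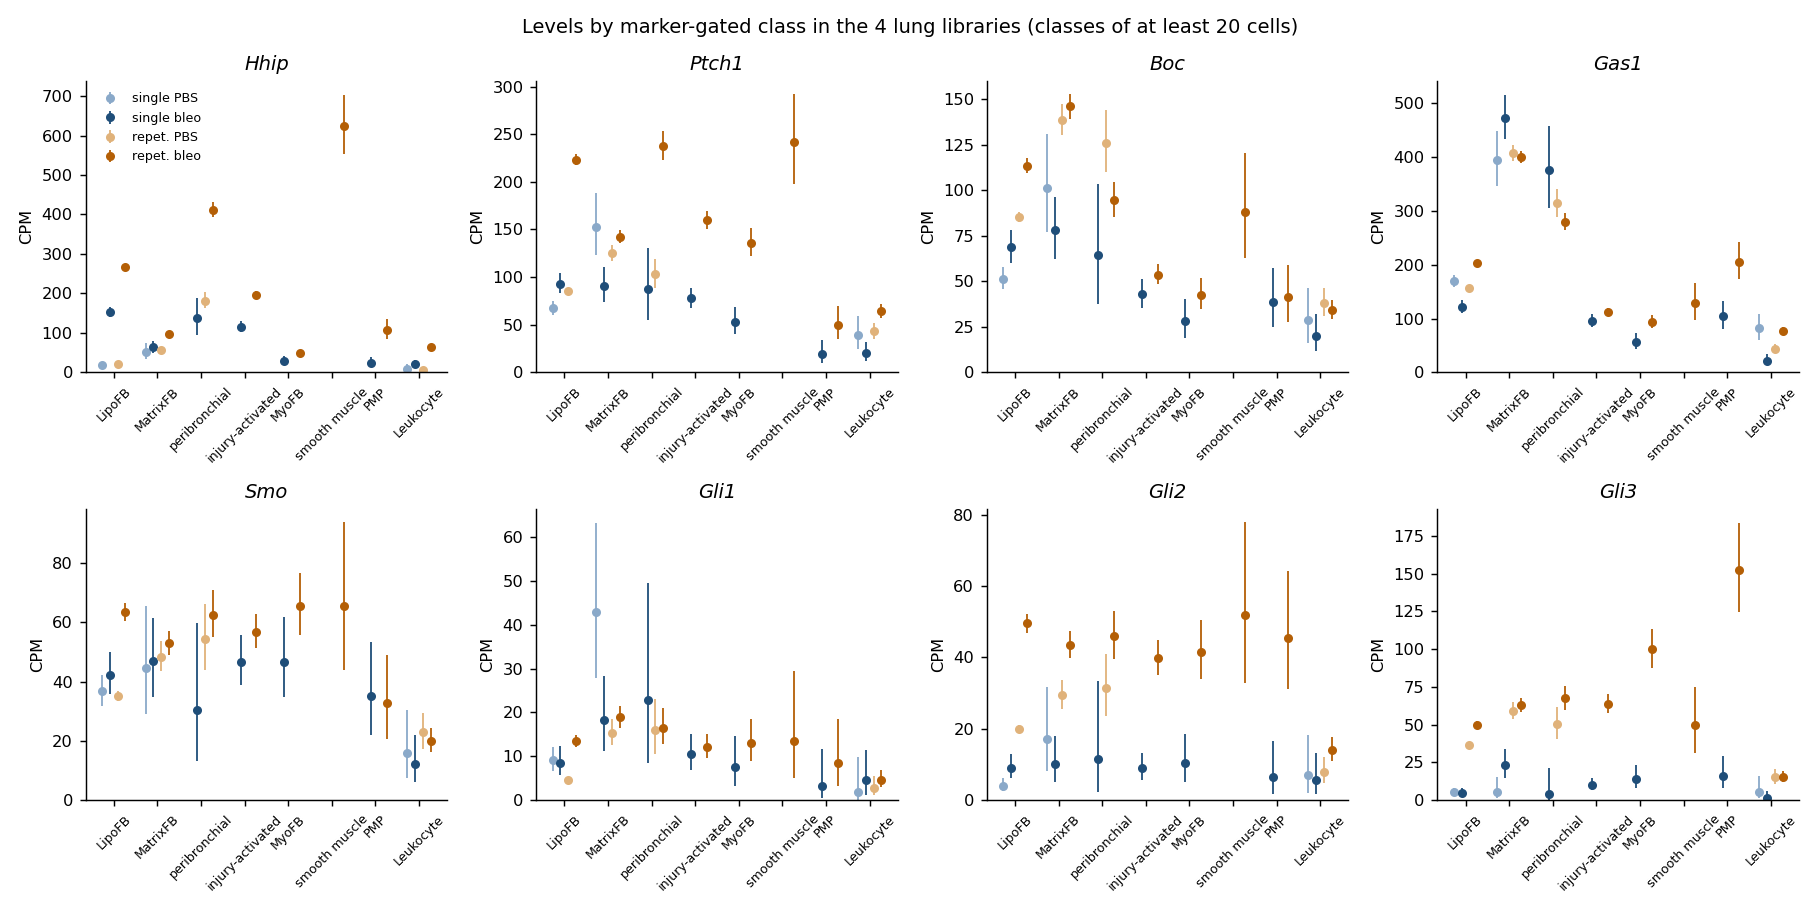
Level of each gene in CPM (y axis, from 0) by marker-gated class (x axis) in the 4 lung libraries (colours), for classes of at least 20 cells; vertical lines are exact 95% Poisson intervals. Hhip in LipoFB-like cells goes from 20.4 to 267 CPM between repetitive PBS and bleomycin, whereas Gas1 in MatrixFB-like cells is at 408 and 401 CPM.

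The share of cells with Hhip was compared after thinning every cell to 2000 UMIs, because the libraries differ in depth. At that depth 4.49% (3.21 to 6.08) of single-dose PBS FBs and 15.2% (12.8 to 17.8) of bleomycin FBs had a Hhip UMI, and 4.33% (3.80 to 4.91) and 22.0% (20.9 to 23.1) in the repetitive pair. Unthinned, the shares were 10.1%, 39.9%, 11.7% and 41.0% at median depths of 6930, 11621, 10602 and 8703 UMIs. Leukocyte barcodes, which should lack Hhip apart from free RNA or an FB held in the same barcode, had 0 of 65, 4.71%, 0 of 282 and 8.01% after thinning. Their median depths were 7916, 6773, 4967 and 4546 UMIs. By the exact interval 0 of 65 allows a share of up to 5.52% and 0 of 282 up to 1.30%. In LipoFB-like cells the thinned share went from 3.07% to 22.3% (single) and from 3.06% to 28.5% (repetitive). These shares were above the leukocyte interval of their library except in single-dose PBS, where 0 of 65 leukocytes do not exclude 3.07%. The few endothelial barcodes of the repetitive bleomycin library also carried Hhip, in 15.6% (7.76 to 26.9) of 64 cells, against 0 of 128 in repetitive PBS; their interval ends just above the LipoFB-like share's lower bound of 26.7%. MatrixFB-like cells of that library had 13.3% (11.7 to 15.02), above its leukocytes and within the endothelial interval. MyoFB-like cells of the repetitive bleomycin library had 4.27% of only 117 cells, not above its leukocytes. MatrixFB-like cells of the single-dose bleomycin library had 5.93%, within the leukocyte interval (1.30 to 11.6). These last shares were not above those of the leukocyte barcodes at this depth, and how much of either is free RNA was not tested. FBs with 3 or more Hhip UMIs in 2000 made up 0.375% of repetitive PBS and 4.13% of repetitive bleomycin FBs.

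**Figure D3:**
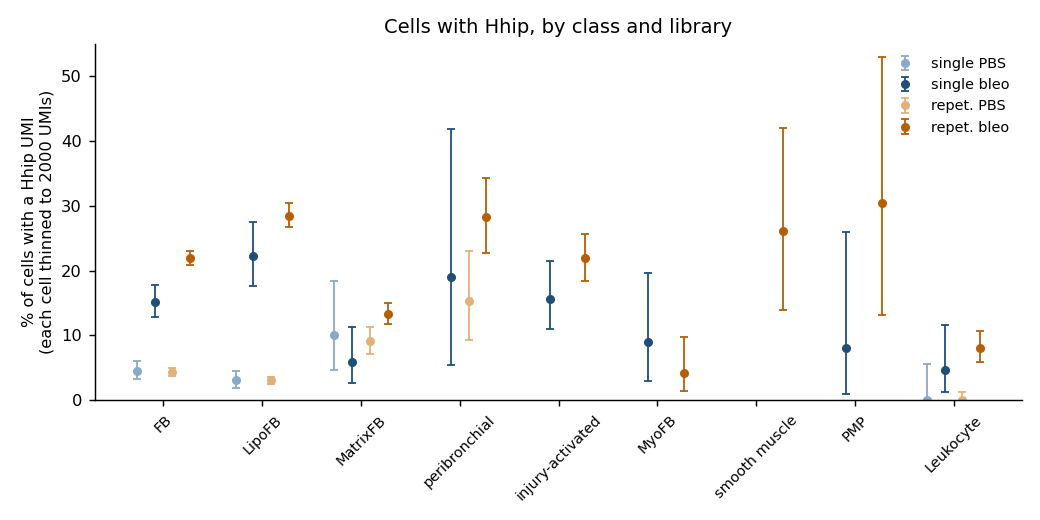
Percent of cells with at least 1 Hhip UMI after thinning each cell to 2000 UMIs (y axis) by class (x axis) in the 4 lung libraries (colours); lines are exact 95% binomial intervals. LipoFB-like cells reach 22.3% and 28.5% after bleomycin, and leukocyte barcodes 4.71% and 8.01%.

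Ptch1, the ligand-binding receptor and a target gene of the pathway, differed clearly between the repetitive libraries, whereas the single-dose interval includes no difference. It stood at 76.8 CPM (69.9 to 84.1) and 77.5 CPM (72.3 to 83.0) in FBs of single-dose PBS and bleomycin, a ratio of 1.01 (0.899 to 1.13). It stood at 91.1 CPM (88.7 to 93.5) and 191 CPM (188 to 195) in the repetitive pair, 2.10-fold higher after bleomycin (2.03 to 2.17). LipoFB-like cells differed more than all FBs together. They went from 67.1 to 93.0 CPM (1.39-fold, 1.19 to 1.62) after a single dose and from 84.9 to 223 CPM (2.63-fold, 2.53 to 2.74) after repetitive doses. MatrixFB-like cells went from 153 to 90.9 CPM after a single dose, 1.68-fold lower (1.25 to 2.26), and from 125 to 142 CPM after repetitive doses. Peribronchial FB-like cells of the repetitive pair went from 103 to 237 CPM, 2.30-fold (1.96 to 2.71). MyoFB-like cells were 1.75-fold (1.31 to 2.36) and 1.64-fold (1.47 to 1.84) below LipoFB-like cells in the single-dose and repetitive bleomycin libraries. Leukocyte barcodes read 39.2, 20.2, 43.0 and 63.9 CPM of Ptch1 in the order single PBS, single bleomycin, repetitive PBS and repetitive bleomycin. The call of a 2-fold difference in the repetitive pair is close to its limit: the log2 ratio was 1.06, and 0.96 after centring on the median gene.

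The co-receptors Boc and Gas1, membrane proteins that help ligand reach Ptch1, were nearly level between treated and control FBs and differed mainly between classes. Boc stood at 56.1 and 52.7 CPM in the single-dose pair and at 93.4 and 106 CPM in the repetitive pair, ratios of 0.940 (0.819 to 1.08) and 1.14 (1.10 to 1.18). Gas1 stood at 199 and 156 CPM in the single-dose pair, 1.28-fold lower after bleomycin (1.18 to 1.38). It stood at 193 and 232 CPM in the repetitive pair, 1.201-fold higher (1.17 to 1.23). In LipoFB-like cells Boc was 1.34-fold (1.12 to 1.60) and 1.33-fold (1.27 to 1.39) higher after single-dose and repetitive bleomycin. Gas1 there was at 0.718 times (0.637 to 0.808) and 1.29 times (1.25 to 1.34) PBS. Boc in peribronchial FB-like cells of the repetitive pair was 1.34-fold lower after bleomycin (1.13 to 1.58). In repetitive PBS both genes were higher in MatrixFB-like and peribronchial FB-like than in LipoFB-like cells. Gas1 was 2.60-fold (2.49 to 2.71) and Boc 1.62-fold (1.51 to 1.74) higher in MatrixFB-like cells, and 2.00-fold (1.83 to 2.18) and 1.48-fold (1.28 to 1.69) in peribronchial FB-like cells. After repetitive bleomycin, Boc in the peribronchial class was instead 1.202-fold (1.08 to 1.34) below LipoFB-like cells. Gas1 in MatrixFB-like cells was measured at 395, 474, 408 and 401 CPM in single PBS, single bleomycin, repetitive PBS and repetitive bleomycin, so it was high in this class with and without injury. In MyoFB-like cells of the repetitive bleomycin library Gas1 was 2.15-fold (1.89 to 2.47) and Boc 2.65-fold (2.18 to 3.25) below LipoFB-like cells, and in the single-dose library 2.13-fold (1.63 to 2.84) and 2.46-fold (1.67 to 3.72). Cells of the injury-activated gate held Boc at 42.9 and 53.7 CPM in the single-dose and repetitive bleomycin libraries, against 68.9 and 113 CPM in LipoFB-like cells.

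Smo, the receptor-like protein that carries the signal into the cell, was 1.22-fold (0.774 to 1.84) and 1.38-fold (1.22 to 1.54) higher in MatrixFB-like than in LipoFB-like cells of the single-dose and repetitive PBS libraries, and 1.54-fold (1.24 to 1.89) higher in peribronchial FB-like cells of repetitive PBS. Its FB level was 38.6 CPM (33.8 to 44.0) and 45.4 CPM (41.4 to 49.6) in the single-dose pair, a ratio of 1.17 (1.00 to 1.38). It was 37.6 CPM (36.0 to 39.2) and 60.8 CPM (58.8 to 62.8) in the repetitive pair, 1.62-fold higher after bleomycin (1.53 to 1.71). In that pair LipoFB-like cells held 35.2 and 63.6 CPM (1.81-fold, 1.69 to 1.93), while MatrixFB-like cells were at 48.4 and 52.9 CPM. Leukocyte barcodes were at 12.3 to 22.9 CPM in the 4 lung libraries.

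Among the transcription factors, Gli1, whose level follows pathway activity in many tissues, was measured at few UMIs. In the single-dose pair it stood at 12.5 CPM (9.83 to 15.7, 75 UMIs) and 10.3 CPM (8.49 to 12.5, 109 UMIs), with overlapping intervals. In the repetitive pair it stood at 6.27 CPM (5.65 to 6.94) and 14.7 CPM (13.7 to 15.7), 2.34-fold higher after bleomycin (2.07 to 2.66). In PBS lungs Gli1 was higher in MatrixFB-like cells, 4.75-fold (2.80 to 7.87) above LipoFB-like cells in the single-dose and 3.40-fold (2.68 to 4.28) in the repetitive library, where peribronchial FB-like cells were 3.54-fold (2.30 to 5.26) above. After bleomycin the MatrixFB-like cells were 2.15-fold (1.15 to 3.94) and 1.42-fold (1.19 to 1.68) above. In the single-dose pair Gli1 was lower in MatrixFB-like cells (42.9 and 18.4 CPM, from 25 and 20 UMIs), the 1 member of 8 called lower there against 4.36% of 7276 genes; 1 member, Gli3, was called higher there from 3 and 25 UMIs (4.46-fold, 1.36 to 23.0), against 6.05% of genes. In the repetitive pair it was higher in LipoFB-like cells (4.51 and 13.4 CPM, 2.97-fold, 2.50 to 3.52).

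Gli2, the main activator, and Gli3, the main repressor of the family, were both higher after bleomycin in all FBs of the repetitive pair. Gli2 went from 21.5 to 46.3 CPM (2.15-fold, 2.01 to 2.31) and Gli3 from 39.7 to 59.5 CPM (1.497-fold, 1.42 to 1.58). In the single-dose pair Gli2 stood at 5.83 and 8.63 CPM, a ratio of 1.48 (0.993 to 2.25), and Gli3 at 5.33 and 10.6 CPM, 1.99-fold higher (1.33 to 3.05) from 32 and 112 UMIs. With the PBS shares of 2 classes used for both libraries, this Gli3 difference was 1.29-fold. Over barcodes of at least 5000 UMIs it was 2.29-fold (1.47 to 3.69) and called higher. In LipoFB-like cells Gli2 was higher in both experiments, 2.26-fold (1.26 to 4.14) from 21 and 31 UMIs and 2.49-fold (2.29 to 2.71). Gli3 there was 5.39 and 5.003 CPM in the single-dose pair (ratio 0.929, 0.477 to 1.76) and 36.3 and 49.7 CPM in the repetitive pair (1.37-fold, 1.27 to 1.47). In repetitive PBS, Gli3 was 1.63-fold (1.46 to 1.81) higher in MatrixFB-like and 1.38-fold (1.10 to 1.71) in peribronchial FB-like than in LipoFB-like cells. In single-dose PBS its MatrixFB-like ratio was 0.956 (0.186 to 3.10), from 3 and 28 UMIs. Gli2 in MatrixFB-like cells was 4.25-fold (1.79 to 9.43) and 1.48-fold (1.27 to 1.72) above LipoFB-like cells in single-dose and repetitive PBS. In the bleomycin libraries too, Gli3 was lower in LipoFB-like cells than in several other classes. MatrixFB-like cells were 4.59-fold (2.38 to 9.05) above them in the single-dose and 1.26-fold (1.16 to 1.38) in the repetitive library, and MyoFB-like cells 2.80-fold (1.30 to 5.97) in the single-dose and 2.01-fold (1.75 to 2.30) in the repetitive experiment. In the repetitive bleomycin library its highest class level was 152 CPM (125 to 184) in 23 cycling, PMP-like cells, where Ptch1 was 4.49-fold (3.23 to 6.46) below LipoFB-like cells. In LipoFB-like cells as a whole, 2 of the 8 members (Hhip and Gli2) were called higher after a single dose, against 5.39% of 10728 genes (1 with 1 marker more in each gate, where Gli2 was lost), and 4 (Hhip, Gli1, Gli2 and Ptch1) after repetitive doses, against 5.15% of 15671 genes. In MatrixFB-like cells of the repetitive pair 0 of 8 were called in either direction, against 4.69% of 13220 genes. In peribronchial FB-like cells 2 of 8 (Hhip and Ptch1) were called higher, against 6.2% of 11326 genes.

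**Figure D4:**
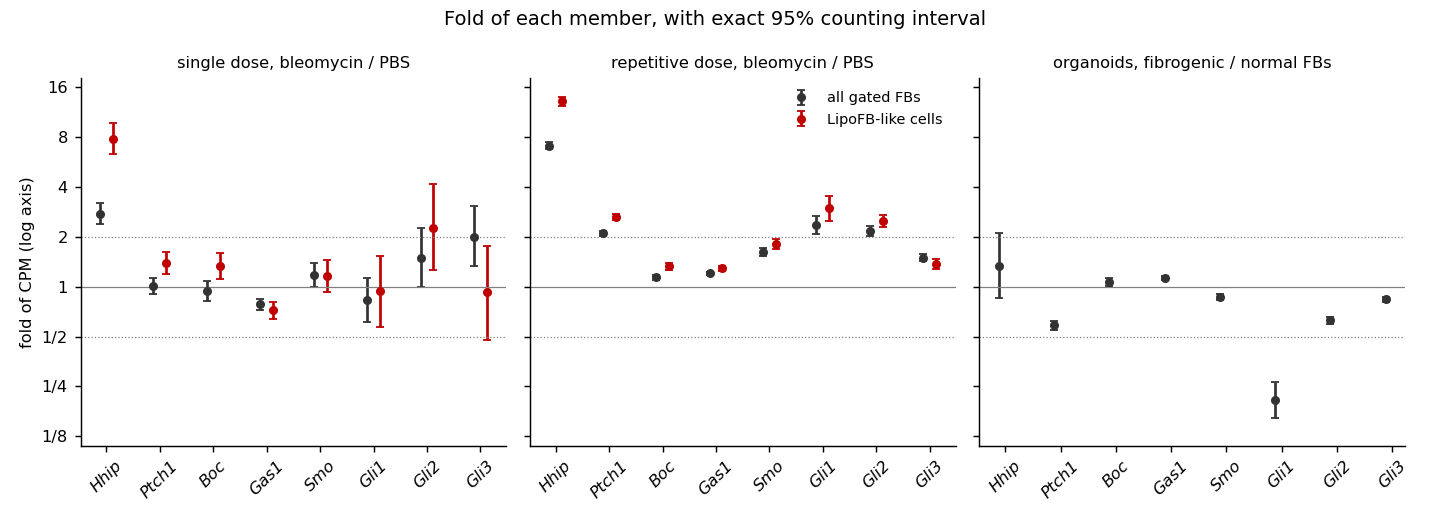
Fold of CPM for each member between the treated and the control library (y axis, log scale) in the 3 comparisons, over all gated FBs (dark) and LipoFB-like cells (red, lung only); lines are exact 95% intervals and dotted lines mark 2-fold. Hhip in LipoFB-like cells lies at 7.77-fold and 13.1-fold, and Gli1 in the organoids lies lowest.

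In the organoids Hhip was counted 33 times in 2130 normal FBs and 61 times in 3268 fibrogenic FBs, 0.294 CPM (0.202 to 0.413) and 0.390 CPM (0.299 to 0.501), at a median depth of 49135.5 and 44286 UMIs per cell. Gli1 stood at 2.49 CPM (2.21 to 2.80) with normal and at 0.518 CPM (0.412 to 0.644) with fibrogenic FBs, 4.81-fold lower (3.75 to 6.24). It was the 1 member of 8 called lower, where 0.71% of 17893 genes were. The call rests on few UMIs, 280 and 81, and was lost when 10 CPM was added in place of 1 or when FBs were not gated (log2 ratios of -0.25 and -0.82 against -1.20), although over all barcodes Gli1 was still 3.84-fold lower (3.02 to 4.92) as a plain ratio. Ptch1 stood at 18.9 and 11.0 CPM, 1.71-fold lower with fibrogenic FBs (1.61 to 1.82), and Gli2 at 28.3 and 17.7 CPM, 1.59-fold lower (1.51 to 1.68). The other 4 members differed by less: Gli3 was 49.6 and 41.7 CPM, Smo 36.5 and 31.4 CPM, Boc 17.6 and 18.7 CPM, and Gas1 60.0 and 67.5 CPM (1.12-fold, 1.09 to 1.16). Organoid FBs had 0 cells in the LipoFB-like gate, and MyoFB markers were high in each of their classes of at least 20 cells (a median of 93.1 to 185 UMIs per 10000), so their classes are not described here. Organoid epithelial cells were lower than FBs in Gli2, with 1.73 and 1.62 CPM in the cultures with normal and fibrogenic FBs, and had Ptch1 at 10.7 and 10.2 CPM. Boc in epithelial cells was 1.46 and 3.31 CPM.

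Ligands were looked for in all cell types. Shh was counted 0 times in the FBs of all 4 lung libraries, which allows up to 0.500, 0.285, 0.0508 and 0.0529 CPM (3 UMIs) in single PBS, single bleomycin, repetitive PBS and repetitive bleomycin. The few epithelial barcodes left in the sorted lung cells carried it: 7 Shh UMIs in 8 barcodes of single PBS, 0 in 6 of single bleomycin, 6 in 34 of repetitive PBS and 9 in 21 of repetitive bleomycin. In the organoids Shh was measured in epithelial cells at 10.2 CPM (9.56 to 10.8, 2115 cells) with normal and at 11.99 CPM (11.2 to 12.8, 2062 cells) with fibrogenic FBs, and at 0.0624 and 0.147 CPM in the FBs of the same cultures. Ihh was counted at most 7 times in the FBs of any library. Dhh had 15 and 9 UMIs in the FBs of repetitive PBS and bleomycin and 8 and 3 UMIs in their endothelial barcodes (128 and 64), which is 4.07 CPM (1.76 to 8.02) and 6.41 CPM (1.32 to 18.7) there.

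A wider list of 35 other pathway genes was read in the same FBs. In the single-dose pair 6 were at least 2-fold higher and 1 lower of 28 with at least 20 UMIs, and in the repetitive pair 6 higher and 1 lower of 33, where the shares of all genes were 9.26% higher and 3.72% lower, and 5.91% higher and 1.65% lower. The list's median log2 ratio was 0.03 and 0.21, beside 0.09 and 0.10 over all genes; in the organoids it was -0.08 beside -0.01, with 0 of 34 called against 0.922% of all genes. Ccnd1, the cyclin D1 gene, had the highest ratio after adding 1 CPM in both lung experiments, from 4.50 to 44.8 CPM (9.96-fold, 6.76 to 15.3) and from 6.97 to 41.3 CPM (5.93-fold, 5.34 to 6.60), and in the organoids too (95.1 and 131 CPM). It responds to many pathways besides hedgehog, and leukocyte barcodes held it at 53.1 to 80.2 CPM. Scube2, a secreted protein that helps release ligand, had the lowest ratio in all 3 comparisons: it was 98.8 and 43.7 CPM in the single-dose pair (2.26-fold lower, 2.00 to 2.56), 201 and 98.7 CPM in the repetitive pair (2.03-fold lower, 1.97 to 2.10), and 1.71 and 0.467 CPM in the organoids. In LipoFB-like cells Scube2 was 113 and 86.5 CPM (single) and 237 and 166 CPM (repetitive), and it was not called there. Its relative Scube1 went the other way in the lung, 3.16-fold higher after a single dose (2.41 to 4.21) and 5.49-fold after repetitive doses (5.03 to 6.01). In the organoids Scube1 was lower with fibrogenic FBs, as Scube2 was, at 2.245 and 1.293 CPM (1.74-fold lower, 1.44 to 2.1), and it was not called.

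Among the other genes of the list, Cdon, a co-receptor related to Boc, was 2.27-fold higher after a single dose (9.50 and 21.5 CPM) and 2.16-fold after repetitive doses (29.1 and 62.9 CPM). It was higher in MatrixFB-like cells (125 CPM in repetitive PBS, against 11.7 CPM in LipoFB-like cells). Within LipoFB-like cells the Cdon ratio was 1.60 (0.863 to 2.96) after a single dose, not called, and 2.23 (1.99 to 2.50) after repetitive doses. Lrp2 was called higher in the repetitive pair from 8 and 85 UMIs. Sufu, which holds Gli proteins in the cytoplasm, was 2.28-fold higher after a single dose (36 and 144 UMIs) and 1.34-fold after repetitive doses (1113 and 1434 UMIs). Within LipoFB-like cells the Sufu ratio was 1.53 (0.915 to 2.56) and 1.30 (1.18 to 1.44), and it was not called there. Kif7, a cilium motor that regulates Gli proteins, was 2.50 and 3.99 CPM and 2.92 and 4.94 CPM in the single-dose and repetitive pairs. Foxf1, a mesenchymal transcription factor gene known to respond to hedgehog, stayed within 1.11-fold in both, at 32.5 and 32.9 CPM and at 28.5 and 31.6 CPM.

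**Figure D5:**
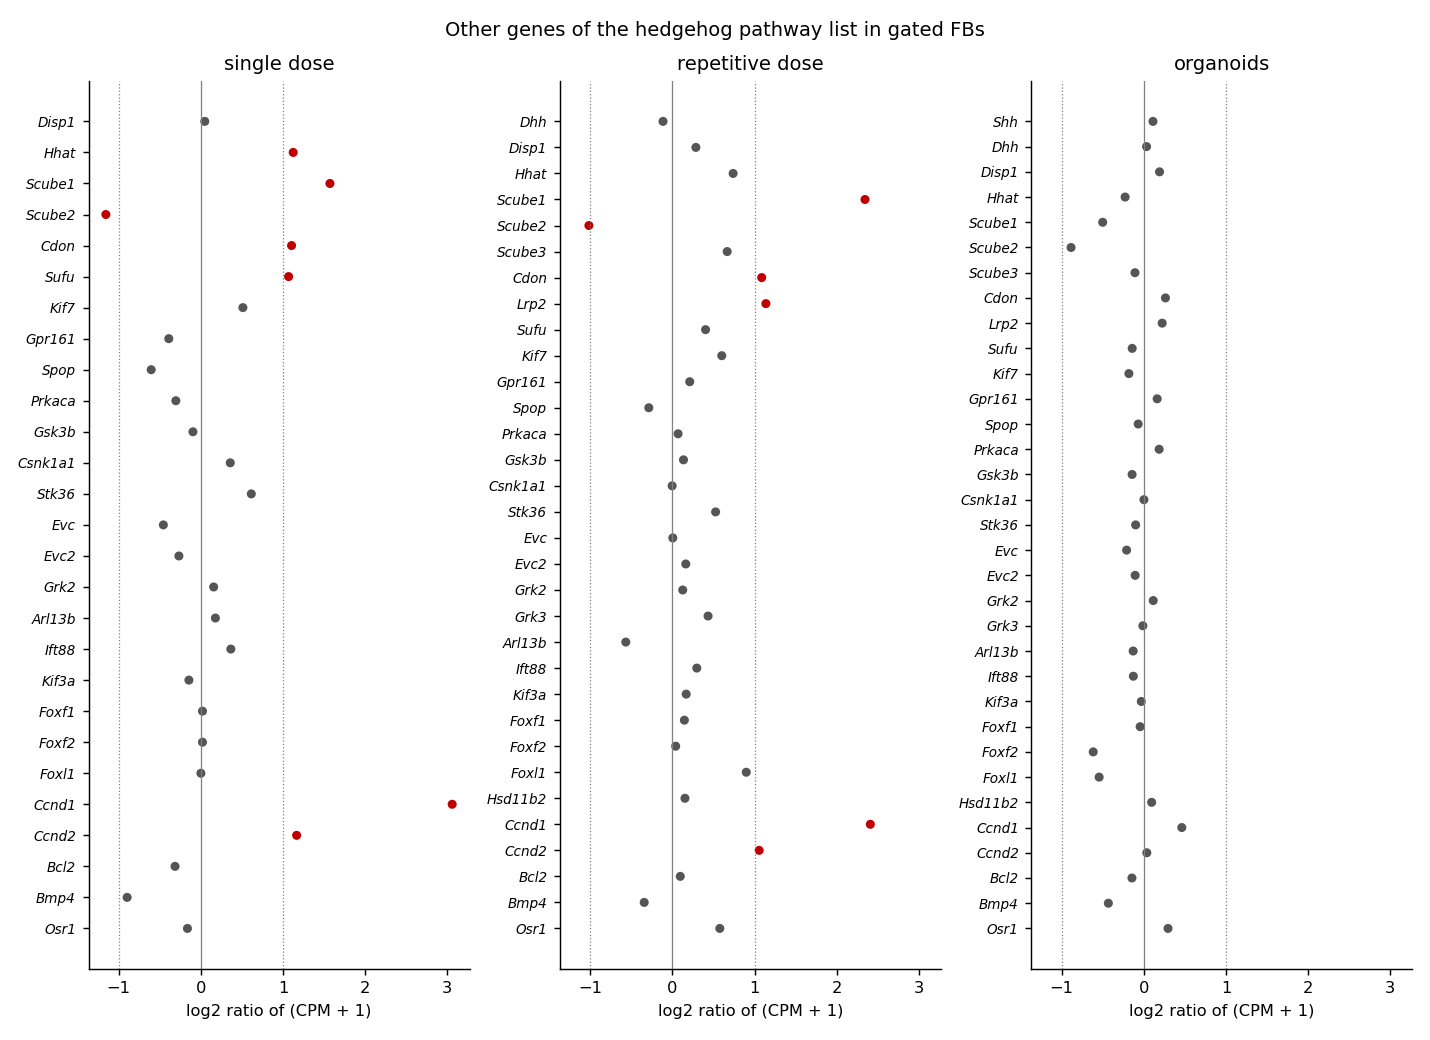
Log2 ratio of (CPM + 1) between treated and control FBs (x axis) for the other pathway genes with at least 20 UMIs (y axis) in the 3 comparisons, without genes that are not reported here; red points are at least 2-fold apart (dotted lines at -1 and 1). Ccnd1 lies farthest right in both lung experiments and Scube2 farthest left in all 3 comparisons.

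The genes whose levels ran most like each member were ranked by Pearson correlation of log2(CPM + 1) over 18 class-by-library sums from the 4 lung libraries, among 11135 genes. For Hhip they were Mrvi1 (r = 0.86), Brinp1 (0.85) and Wnt5a (0.81). Gli1 was followed by Mn1 (0.85), Ypel4 (0.84) and Kcnj8 (0.83), and Gas1 by Fbln1 (0.91), Ggh (0.90) and Cd34 (0.90). Boc ran with Dock9, Fmo1 and Ablim1 (0.93, 0.93 and 0.93), Ptch1 with Asah1, L3mbtl3 and Slc36a4 (0.93, 0.90 and 0.90), and Smo with Edc3, Zfp512b and Prkd1 (0.87, 0.87 and 0.86). Gli2 ran with Scmh1 and Ppp4r3b (0.96 and 0.96) and Gli3 with Eif3a, Larp1 and Larp4 (0.97, 0.97 and 0.96). Over the 10 sums of the repetitive libraries alone, several of these were lower, such as Gli2 with Ppp4r3b (0.60) and Gli3 with Larp4 (0.68), whereas Hhip with Mrvi1 was 0.91. Among the members themselves the highest values were 0.84 for Gli2 with Gli3, 0.76 for Boc with Gas1 and 0.74 for Ptch1 with Smo, and Hhip was nearest to Ptch1 (0.67). Over the repetitive sums alone Gli2 with Gli3 was 0.45, Boc with Gas1 0.76 and Ptch1 with Smo 0.89, and Hhip was nearest to Gli2 (0.76; Ptch1 0.64). The points share libraries, tables and depth, so these values are descriptions with no test.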

How the data were processed

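Pdgfra-GFP+ lung cells (4 libraries) and whole organoid cultures (2 libraries) were profiled by 10x single-cell RNA sequencing. The deposited values are raw UMI counts per gene and barcode. Per the labels and the study's methods, the authors used Cell Ranger 3.0.1 on mm10 (GRCm38), and Gencode M17, stated for the samples in general. The 4 tables with 32285 gene rows differ from the single-dose tables in their rows, and whether M17 holds for them too was not settled. Seurat 3 served downstream. The deposited counts were read as they stand.

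The 8 members, the pathway list of 35 genes and the marker lists were chosen with earlier results of these data known. The marker genes were fixed, whereas the scoring of the gates was set on these data. Barcodes with at least 2000 UMIs, at most 25% mitochondrial and 0.5% haemoglobin UMIs were kept. FBs had at least 3 of 6 FB markers, and no other lineage by at least 3 markers holding at least 10% of the FB marker UMIs. FBs were then gated in order as PMP-like, MEFB-like, smooth muscle-like, MyoFB-like and peribronchial FB-like (3 markers, 4 for MyoFB), then MatrixFB-like, LipoFB-like and injury-activated FB-like by marker content (at least 64, 32 and 16 UMIs per 10000, and 3 markers). No doublet caller was run, so doublets within a class remain. Barcodes past both limits for another lineage were left out of the FBs and formed the leukocyte, endothelial and epithelial classes, doublets with FBs included. Barcodes below either limit could stay as FBs. UMIs were summed per class and library and given as CPM. Ratios were called at 2-fold after adding 1 CPM, for genes with at least 20 UMIs in both libraries together, and classes needed at least 20 cells. Intervals are exact Poisson, Clopper-Pearson and conditional binomial, at 95%. Named genes were the 8 members, the 3 ligands, Cdon, Sufu, Kif7, Foxf1, the highest and lowest ratio of the list in each comparison, and the 3 genes of highest correlation with each member; Scube1, Lrp2 and Dhh in endothelial barcodes were added after their values were seen. Some genes that this rule selects are not reported here. Grk2 and Grk3 were matched by their older symbols in the single-dose tables. The scripts were tested on simulated data and used Python 3.11.15, numpy 2.4.6, scipy 1.17.1, pandas 2.3.3 and igraph 0.11.9.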

Additional observations from a re-analysis of the deposited data

Results flagged for a closer look

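Gas1 differed in opposite directions in the FBs of the lung experiments: the bleomycin library was at 0.784 times PBS after a single dose and at 1.201 times PBS after repetitive doses, and both intervals exclude no difference. Each direction rests on 1 library per condition, and the difference between the experiments was not tested. The experiments also differ in dosing and in the gene rows of their tables. With the mean of per-cell CPM in place of summed counts, the single-dose log2 ratio was 0.06 in place of -0.35.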

How the results depend on the processing

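Across 10 or 11 alternatives per comparison, the log2 ratio of Hhip kept its sign in both lung experiments (1.09 to 2.58 after a single dose, 2.48 to 2.99 after repetitive doses), and in no comparison did a called member change sign. The count of members past 2-fold was 1 in the single-dose pair and 2 over barcodes of at least 5000 UMIs, an alternative added after seeing the data. In the repetitive pair it was 4, 2 after centring on the median gene (whose log2 ratio was 0.10) and 1 with 10 CPM added (log2 ratios of 0.60 for Gli1, 0.84 for Gli2 and 0.99 for Ptch1), and 3 without gates or with the mean of per-cell CPM. In the organoids it was 1, and 0 without gates and 0 with 10 CPM added. The count of other pathway genes in the repetitive pair was 7, and 4 after centring, which for this list was added after seeing the data. In LipoFB-like cells of the single-dose pair it was 2 members, and 1 with 1 marker more in each gate, also added after seeing the data. The log2 ratio of Hhip between peribronchial FB-like and LipoFB-like cells of repetitive PBS was 3.09, 5.11 with 1 marker more and 4.2 with Leiden clusters named by the same markers. The cluster highest in peribronchial markers was named MatrixFB-like. The percent of FBs with a Hhip UMI was 4.49, 15.2, 4.33 and 22.0 in the lung libraries, and 10.1, 39.9, 11.7 and 41.0 unthinned. Of the 24 genes of like pattern, 11 were shared with a Spearman ranking. Apart from the construction of each setting, the cause of these shifts was not tested. No paired analysis was possible because each condition is 1 library. In the single-dose FBs Gli1, Gli2 and Gli3 rest on 32 to 112 UMIs per library, which sets the width of their intervals.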
